A study of Mus musculus with 9 samples.

Results

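The 10 genes described here are markers of fibroblasts, the matrix-producing cells of connective tissue: Pdgfra, Pdgfrb, Thy1, Fap, Dcn, Lum, Bgn, Postn, Fbln1 and Dpt. They were chosen by name with earlier results of these data known, so counts over them are not a test of the list. All 10 were among the 22180 gene symbols measured. Each was read from the probe set that carried its symbol alone and had the highest mean log2 signal over 9 arrays. RNA came from epithelial lesions cut by laser from fixed prostate sections of male mice of mixed strain, aged 12 months, and was measured on a mouse whole-transcript array. All mice carried PbCre and PtenL/L, so the control group was itself diseased and not normal tissue. PbCre is a Cre recombinase driven by the probasin promoter, which is active in prostate epithelium.

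The 3 groups of 3 arrays were high-grade prostatic intraepithelial neoplasia (HG-PIN, dysplastic cells within the gland) from PbCre;PtenL/L mice, called control HG-PIN; HG-PIN lesions of the genotype PbCre;T-3Mb-Erg/+;PtenL/L, called T-3Mb-Erg HG-PIN; and poorly differentiated solid tumours of that genotype. T-3Mb-Erg is an engineered allele, carried here beside a wild-type copy. The tumours and the T-3Mb-Erg HG-PIN came from the same 3 mice, and a replicate number marks 1 mouse in both groups, so the arrays stand for 6 mice. In such bulk captures, fewer cells of a type and less RNA per cell cannot be told apart. Tumour replicate 3 stood apart in the fibroblast genes, and the changes of the members that rest on it are given with and without that array.

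Fibroblasts build the scaffold around glands from collagens, which they coat and space with small leucine-rich proteoglycans such as decorin, lumican and biglycan. PDGF receptors carry growth signals into fibroblasts and pericytes, and fibroblast activation protein and periostin are known for their rise in fibroblasts of wounds and tumours. Carcinoma cells that take on a mesenchymal state can also make several of these proteins. Which cells gave the signal was not tested.

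As a gauge of background, the 95th percentile of the mean log2 signal of 1390 olfactory and vomeronasal receptor genes was 4.81, and 27.9% of the 16635 genes tested had a mean above it. Signal medians of the arrays lay between 13.6 and 15.4 on the linear scale. Of 22 luminal epithelial markers measured, 16 to 19 were above the gauge on each HG-PIN array and 4 to 8 on each tumour array, and Krt8, a luminal keratin, lay between 6.75 and 8.26 on the HG-PIN arrays. Of the 10 fibroblast genes, 1 or 2 were above the gauge on each control HG-PIN array, 2 or 3 on each T-3Mb-Erg HG-PIN array, and 5, 4 and 7 on tumour replicates 1, 2 and 3. Most of the markers thus lay near background in HG-PIN, where only Dcn and Bgn had group means above the gauge in both genotypes. Fap, Dpt and Fbln1 were below it on all 9 arrays.

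**Figure D1:**
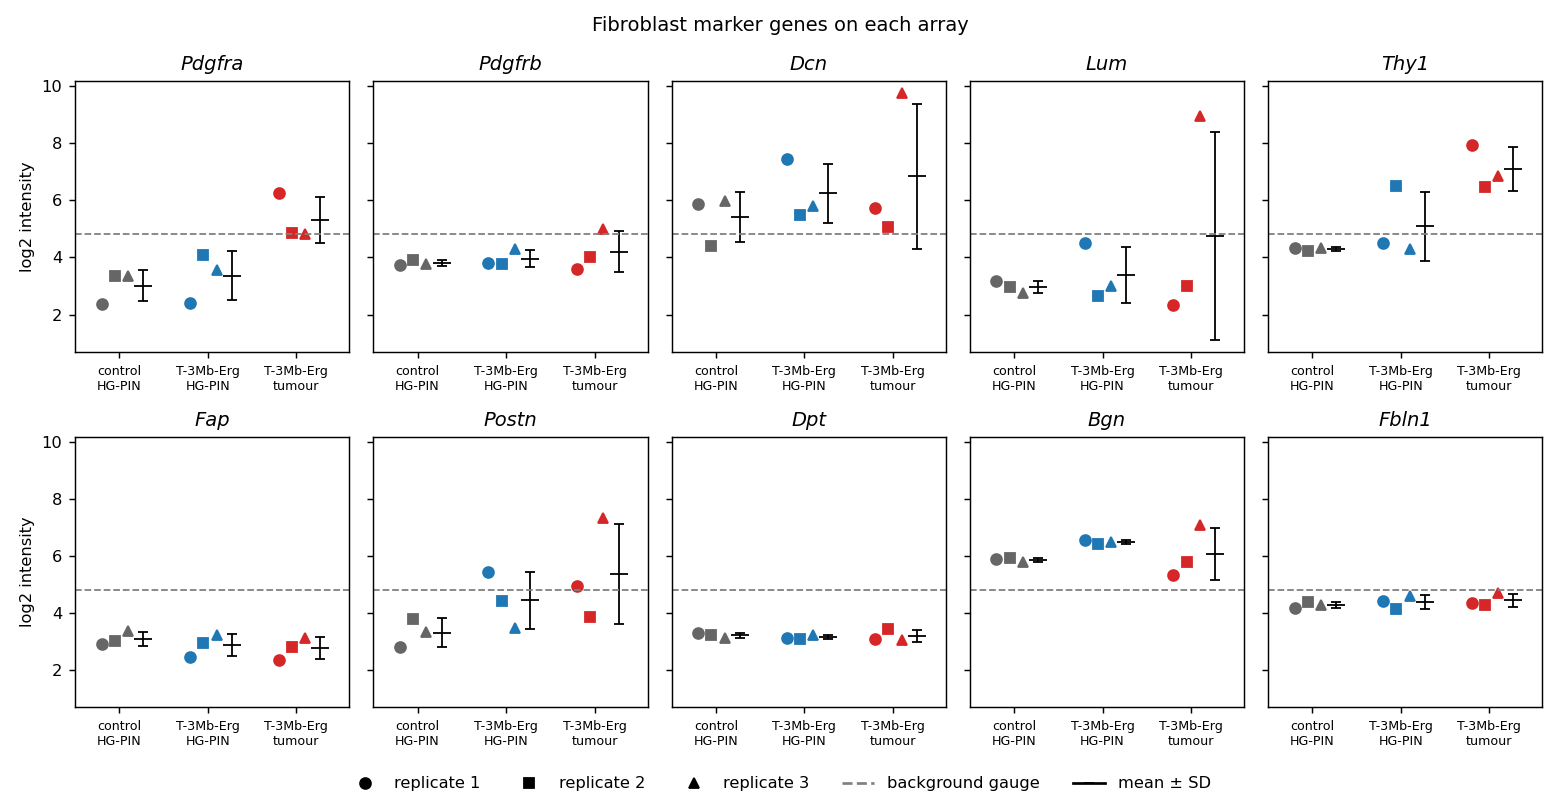
Log2 intensity of the 10 fibroblast genes (1 panel each) on the 9 arrays, by group, with a symbol for each replicate, the group mean ± SD as a black bar and the background gauge of 4.81 as a dashed line. Thy1 is well above the line on all 3 tumour arrays and Pdgfra on 1, with 4.85 and 4.83 on the others, whereas Dcn, Lum and Postn are highest on tumour replicate 3, and Fap, Dpt and Fbln1 lie below the line throughout.

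Tumours were first compared with the HG-PIN lesions that the same 3 animals carried. With no filter on signal, 8 of the 10 genes had a positive log2 change and 2 a negative one, with a median of 0.41, beside 48.2% positive and a median of -0.01 over all 22180 genes. Fap and Dpt fell below the signal filter of the test, which left 8 members. Limma called 0 of the 8 at a Benjamini-Hochberg adjusted p under 0.05, where 0.283% of all tested genes were called, and 2 had an unadjusted p under 0.05, beside 7.65% of all tested genes. Those 2 were Pdgfra and Thy1, both higher, as were 3.67% of all tested genes. A change of at least 1 log2 unit upward was reached by 3 of the 8, Pdgfra, Thy1 and Lum, and by 1.62% of all tested genes. No member had all tumour arrays below all HG-PIN arrays of that genotype, as 6.43% did. Of the 8, 7 were positive (48.9% of all tested genes were), the median over the 8 was 0.76, and it went to -0.16 without tumour replicate 3, when 2 of the 8 remained positive.

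Pdgfra encodes PDGF receptor alpha, a receptor tyrosine kinase of fibroblasts and their mesenchymal precursors. Its log2 signal was 6.26, 4.85 and 4.83 in tumour replicates 1 to 3, 2.41, 4.10 and 3.57 in the HG-PIN of the same mice, and 2.38, 3.33 and 3.34 in control HG-PIN. Every tumour array was above every HG-PIN array, and the groups did not overlap, which held in the same direction for 4.97% of all tested genes. Tumour replicates 2 and 3 stood barely above the gauge, and all 6 HG-PIN arrays below it. The change between tumour and T-3Mb-Erg HG-PIN was 1.95 (SE 0.48, 95% interval 0.91 to 3.00; 3.87-fold) and did not pass (limma adjusted p = 0.168). Within the 3 mice the difference was 3.85, 0.75 and 1.26, positive in 3 of 3, as it was for 11.5% of all tested genes. The change of Pdgfra was between 1.55 and 2.27 when single arrays were left out.

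Thy1 encodes a lipid-anchored surface glycoprotein of fibroblasts that is also carried by T cells and neurons. Its log2 signal was 7.95, 6.48 and 6.85 in tumour replicates 1 to 3, 4.49, 6.49 and 4.31 in the HG-PIN of the same mice, and 4.34, 4.22 and 4.33 in control HG-PIN. All tumour arrays were above the gauge, and of the HG-PIN arrays only T-3Mb-Erg replicate 2 was, at the level of the tumour from its own mouse. The change was 1.99 (SE 0.54, 95% interval 0.81 to 3.18; 3.98-fold), with differences of 3.45, -0.01 and 2.54 within the 3 mice, and did not pass (limma adjusted p = 0.243). Of 10 lymphocyte markers, 1 or 2 were above the gauge on each of the 9 arrays, and their summed intensity ran from 141 to 187 in tumours, from 144 to 179 in the HG-PIN of the same mice and from 156 to 199 in control HG-PIN. Their part in the Thy1 signal was not tested.

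Pdgfrb encodes PDGF receptor beta, which marks pericytes as well as fibroblasts. Its log2 signal was 3.59, 4.01 and 4.99 in tumour replicates 1 to 3 and 3.82, 3.78 and 4.30 in the HG-PIN of the same mice. Tumour replicate 3 was the only array above the gauge. The change was 0.23 (95% interval -0.46 to 0.92, limma adjusted p = 0.983) and turned to -0.12 without that array. Fap, the surface serine protease fibroblast activation protein, read 2.36, 2.81 and 3.12 in tumours and 2.47, 2.94 and 3.23 in the HG-PIN of the same mice. These values are in the range of the receptor genes, and a difference in Fap was not detectable at this signal.

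The 3 small leucine-rich proteoglycans separated tumour replicate 3 from the other tumours. Dcn encodes decorin, which binds collagen fibrils and TGF-beta. Its log2 signal was 5.72, 5.05 and 9.75 in tumour replicates 1 to 3, 7.44, 5.50 and 5.81 in the HG-PIN of the same mice, and 5.86, 4.39 and 5.99 in control HG-PIN. Tumours 1 and 2 thus lay below the HG-PIN of their own mice, by 1.71 and 0.44, while tumour 3 was 3.94 above its HG-PIN. The change over the 3 mice was 0.60 (95% interval -1.64 to 2.83, limma adjusted p = 0.993), and -0.92 without tumour replicate 3.

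Lum encodes lumican, a regulator of fibril diameter. Its log2 signal was 2.34, 3.00 and 8.96 in tumour replicates 1 to 3, 4.52, 2.66 and 3.00 in the HG-PIN of the same mice, and 3.18, 2.98 and 2.77 in control HG-PIN. Tumour replicate 3 was the only 1 of the 9 arrays above the gauge. The change of 1.38 (95% interval -1.47 to 4.22, limma adjusted p = 0.954) became -0.78 without it. In the RefSeq table of assembly GRCm38.p6, Dcn and Lum are neighbours on chromosome 10, followed by the related genes Kera (keratocan) and Epyc (epiphycan). On tumour replicate 3, Kera read 3.23 and Epyc 3.33, below the gauge and within the range of the other arrays (3.18 to 4.12 for Kera, 3.27 to 3.83 for Epyc), unlike Dcn and Lum on that array. The genes on the other side of Dcn were not read.

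Bgn encodes biglycan, a close relative of decorin. On its brighter probe set the log2 signal was 5.32, 5.80 and 7.08 in tumour replicates 1 to 3, 6.55, 6.43 and 6.49 in the HG-PIN of the same mice, and 5.90, 5.92 and 5.79 in control HG-PIN. Tumours 1 and 2 were below all T-3Mb-Erg HG-PIN arrays and tumour 3 above them, and the change was -0.42 (95% interval -1.33 to 0.48, limma adjusted p = 0.958), or -0.93 without tumour replicate 3. The other probe set of Bgn read 5.37, 5.78 and 8.61 in tumours, 6.63, 5.77 and 5.19 in the HG-PIN of the same mice, and 4.52, 4.60 and 5.47 in control HG-PIN. The probe sets gave the same highest array but opposite signs: the mean of both had a change of 0.15.

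Postn encodes periostin, a matricellular protein of wounds and tumour stroma. Its log2 signal was 4.93, 3.86 and 7.32 in tumour replicates 1 to 3, 5.45, 4.43 and 3.46 in the HG-PIN of the same mice, and 2.80, 3.79 and 3.34 in control HG-PIN. Only tumour 3 exceeded the HG-PIN of its mouse, by 3.86, while tumours 1 and 2 were 0.52 and 0.57 lower. The change was 0.92 (95% interval -0.68 to 2.53, limma adjusted p = 0.916), and -0.20 without tumour replicate 3.

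Fbln1 encodes fibulin-1, a glycoprotein of basement membranes and elastic fibres. It read 4.35, 4.29 and 4.70 in tumours and 4.44, 4.13 and 4.60 in the HG-PIN of the same mice, with a change of 0.05 (95% interval -0.41 to 0.52, limma adjusted p = 0.998). Dpt, dermatopontin, which binds decorin, read 3.08, 3.45 and 3.05 in tumours and 3.14, 3.10 and 3.22 in the HG-PIN of the same mice. Dpt thus read in the background range on every array, tumour replicate 3 included, and a difference in Dpt was not detectable at this signal.

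**Figure D2:**
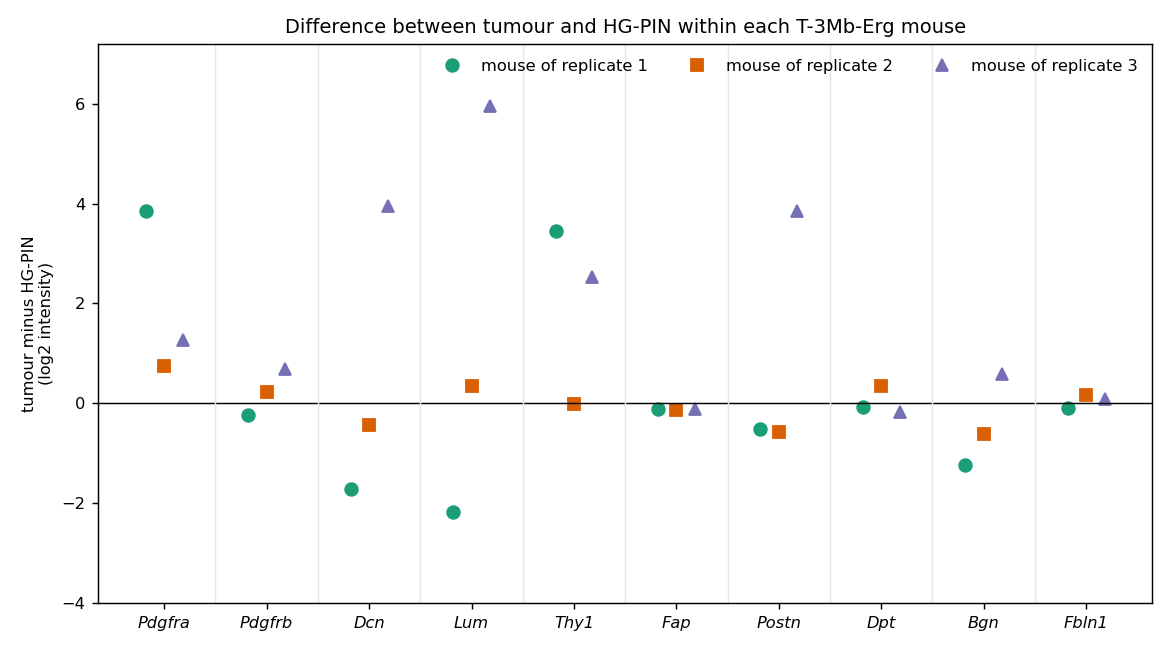
Tumour minus HG-PIN difference in log2 intensity (vertical axis) for each of the 10 fibroblast genes within the 3 T-3Mb-Erg mice, 1 symbol per mouse. The mouse of replicate 3 has the largest rises for Lum (5.96), Dcn (3.94) and Postn (3.86), and the mouse of replicate 1 those for Pdgfra (3.85) and Thy1 (3.45).

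The pairs of captures thus differed in which fibroblast genes were higher in the tumour. Each mouse gave 1 array per lesion, so a trait of the mouse cannot be told from a trait of the capture. In the mouse of replicate 1, 2 of the 10 genes, Pdgfra and Thy1, were higher in the tumour. The median difference was -0.17, and 50.2% of all tested genes were higher. In the mouse of replicate 2, 5 of 10 were higher, beside 51.9% of all tested genes, and the median was 0.07. In the mouse of replicate 3, 8 of 10 were higher and the median was 0.98, whereas 44.5% of all tested genes were higher in the tumour of that mouse. Tumour replicate 3 was the highest array for 6 of the 10 genes (Pdgfrb, Dcn, Lum, Postn, Bgn and Fbln1), against 15.9% of all tested genes. Tumour replicate 1 was the highest for Pdgfra and Thy1, tumour replicate 2 for Dpt and control HG-PIN replicate 3 for Fap. Summed over the 10 genes, linear intensity was 498, 283 and 1874 in tumour replicates 1 to 3, 411, 314 and 259 in the HG-PIN of the same mice, and 208, 185 and 218 in control HG-PIN. Decorin and lumican made up most of the sum on tumour replicate 3, at 863 and 498. That array also had the widest range of signal, with a 95th percentile of log2 intensity of 6.65 against 6.49 and 6.15 on the other tumours. With a term for array range, the median change of the 8 tested members against T-3Mb-Erg HG-PIN was 0.65, that of Dcn 0.46 and that of Lum 1.25.

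HG-PIN lesions of the 2 genotypes were then compared, as T-3Mb-Erg minus control. With no filter on signal, 8 of the 10 genes had a positive change and 2, Fap and Dpt, a negative one, with a median of 0.38 beside 0.00 over all 22180 genes. Limma called 0 of the 8 tested members, as it called 0% of all tested genes, and 0 members had an unadjusted p under 0.05, beside 4.1% of all tested genes (1.83% higher). All 8 were positive, beside 49.5% of all tested genes, 1 of them, Postn, by at least 1 log2 unit, beside 0.902%. The largest changes were in Postn at 1.14 (95% interval -0.46 to 2.73), Dcn at 0.83 (-1.38 to 3.05) and Thy1 at 0.80 (-0.38 to 1.98), with a limma adjusted p of 0.998 for each. Each of the 3 owed much to 1 array: Postn and Dcn were highest in this group on replicate 1, and Thy1 on replicate 2. Left out, those arrays took the change to 0.67 for Postn and 0.33 for Dcn (without replicate 1) and to 0.17 for Thy1 (without replicate 2). Smooth muscle markers were at their highest on the same replicate 1 (summed intensity 1340, against 354 and 486 on the other T-3Mb-Erg HG-PIN arrays and 328 to 409 in control HG-PIN), and their part in the result was not tested. Bgn was the only member whose HG-PIN groups did not overlap, at 6.49 ± 0.06 in T-3Mb-Erg and 5.87 ± 0.07 in control HG-PIN (SD, n = 3 each), which held for 4.86% of all tested genes in that direction and 5.25% in the other. Its change of 0.62 (95% interval -0.28 to 1.52) did not pass (limma adjusted p = 0.998) in a fit with 1 estimate of spread over the 9 arrays, and the groups overlapped on the other Bgn probe set.

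The third comparison set tumours against control HG-PIN, which differ in lesion, allele and mice at once and share arrays with the first and second comparisons. With no filter on signal, 8 of 10 genes were positive with a median of 0.91, beside -0.03 over all 22180 genes. Limma called 0 of the 8 tested members, beside 0.18% of all tested genes (0.108% higher, 0.0721% lower), and 3 had an unadjusted p under 0.05, all higher, beside 9.32% (4.74% higher). All 8 were positive, beside 46.3%, and 5 by at least 1 log2 unit, beside 2.58%. As in the first comparison, counts over the 8 follow in part from a filter that included the tumour arrays. Without tumour replicate 3 the median of the 8 fell from 1.61 to 0.058, Dcn (-0.089), Lum (-0.36) and Bgn (-0.31) were negative, and Pdgfra (2.57) and Thy1 (2.80) alone were above 1 log2 unit. Thy1 was closest to the threshold, with 7.09 ± 0.76 in tumours and 4.30 ± 0.07 in control HG-PIN (SD, n = 3 each) and a change of 2.79 (SE 0.54, 95% interval 1.62 to 3.97; 6.94-fold; limma adjusted p = 0.0665). All 3 control values of Thy1 were below the gauge, so that background limits this fold. Pdgfra followed, with 5.31 ± 0.82 and 3.02 ± 0.56 and a change of 2.30 (95% interval 1.26 to 3.33; limma adjusted p = 0.0848). Postn stood at 5.37 ± 1.77 and 3.31 ± 0.50, a change of 2.06 (95% interval 0.47 to 3.65; limma adjusted p = 0.351), which was 0.94 without tumour replicate 3. These 3 were also the members whose groups did not overlap, a pattern held by 6.2% of all tested genes in that direction and 7.51% in the other. For Postn the separation was narrow, with 3.86 on the lowest tumour array and 3.79 on the highest control array, both below the gauge. Thy1, Pdgfra and Postn each passed under at least 1 other setting, array weights among them. Limma called 938 of all tested genes with array weights and 196 with a term for array range, against 30 in the main fit. Over the settings tried, limma adjusted p ran from 0.00252 to 0.267 for Thy1 and from 0.00203 to 0.312 for Pdgfra. For Postn the limma adjusted p ran from 0.0340 to 0.755.

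**Figure D3:**
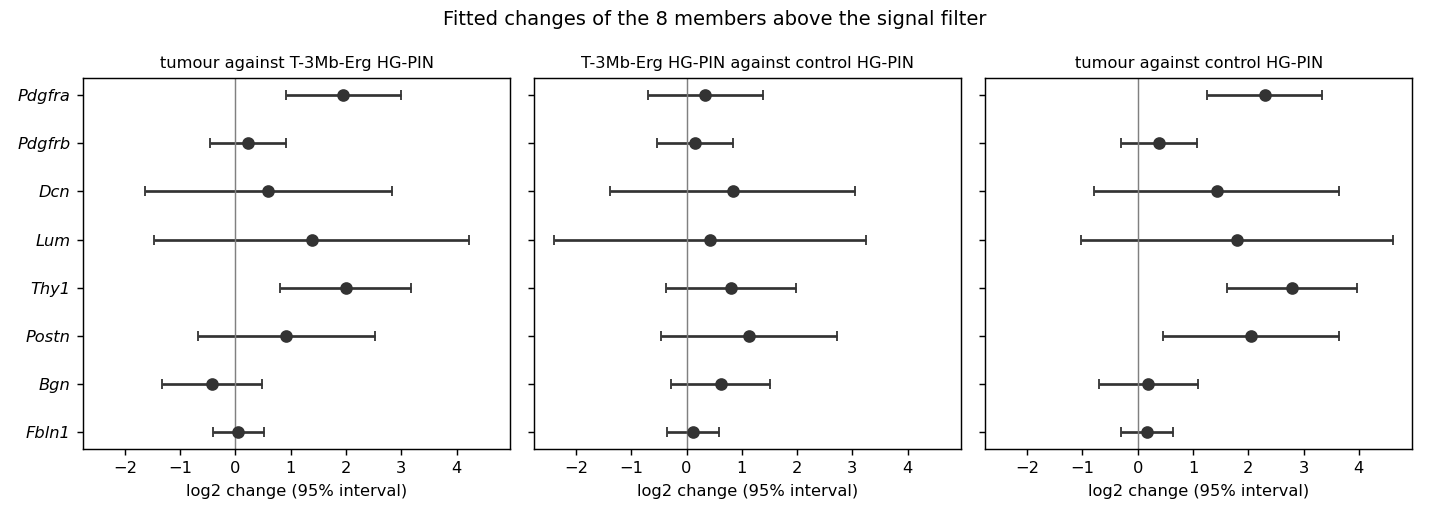
Fitted log2 change (points) with its 95% interval (bars) for the 8 fibroblast genes above the signal filter, in the 3 comparisons. Only Pdgfra and Thy1 have intervals above 0 in the comparison with T-3Mb-Erg HG-PIN, Postn joins them in the comparison with control HG-PIN, and none of the 8 passed after adjustment over all genes.

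For most members the group means rose from control HG-PIN through T-3Mb-Erg HG-PIN to tumours: Pdgfra, Pdgfrb, Dcn, Lum, Thy1, Postn and Fbln1 had this order. Without tumour replicate 3 the step from T-3Mb-Erg HG-PIN to tumours was negative for 5 of these 7, all but Pdgfra and Thy1, so that the order rested on 1 array for Pdgfrb, Dcn, Lum, Postn and Fbln1. Bgn had its highest mean in T-3Mb-Erg HG-PIN. Fap had the opposite order, 3.09, 2.88 and 2.76, and Dpt read 3.21, 3.15 and 3.19, both in the background range. For the 8 tested members, no neighbouring groups in these orders differed by the limma test.

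Other genes of fibroblasts and their matrix were read from lists. These lists were chosen with earlier results of these data known, so their counts are not a test of the lists. Of 38 further fibroblast markers, 37 were measured and 35 tested, and 32 of the 35 had a positive change in tumours against T-3Mb-Erg HG-PIN, with a median of 0.82. Limma called 2 of them higher, beside 0.0661% of all tested genes called higher. They were Prrx1, a homeobox factor of limb and connective tissue mesenchyme (2.87, limma adjusted p = 0.00720), and Gpx3, a secreted glutathione peroxidase (2.98, limma adjusted p = 0.0180). Prrx1 read 8.21, 7.44 and 7.38 in tumour replicates 1 to 3 and 4.60, 5.39 and 4.41 in the HG-PIN of the same mice, so each tumour was above every HG-PIN array of these mice. Without tumour replicate 3 both were called (limma adjusted p = 0.00528 and 0.0226). The list then had 29 of 35 positive with a median of 0.37. Without tumour replicate 1 limma called 0 of all tested genes, so both calls were lost. With the mouse as a fixed block the limma adjusted p was 0.0572 for Prrx1 and 0.0675 for Gpx3. Like the 10 genes, this list was at its highest on tumour replicate 3, with a summed intensity of 6157 against 3873 and 1906 on tumour replicates 1 and 2.

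Relatives of the members were read from further lists, and no difference between lists was tested. Of 13 further leucine-rich proteoglycans measured, 9 were tested, 5 had a positive and 4 a negative change, and the median was 0.04. Their summed intensity was 258 on tumour replicate 3 and 257 on tumour replicate 2, beside 214 on tumour replicate 1. Chad, chondroadherin of cartilage, stood at -1.39 (limma adjusted p = 0.0549) and Nyx at 0.27 (limma adjusted p = 0.909). Of 6 fibulins and periostin relatives measured, 5 were tested and all 5 were positive, with a median of 0.94 (4 of 5 and 0.69 without tumour replicate 3), and their summed intensity was 496, 288 and 568 on tumour replicates 1 to 3. Tgfbi, the paralogue of periostin, read 7.81, 5.30 and 8.43 in tumour replicates 1 to 3 and 4.11, 4.35 and 4.79 in the HG-PIN of the same mice (change 2.76, limma adjusted p = 0.122). Tgfbi was thus above its HG-PIN in tumour 1 too, where Postn was not. Efemp1, fibulin-3, changed by 1.74 (limma adjusted p = 0.263).

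Of the 4 ligands of the PDGF receptors, 1 was positive and 3 negative in tumours, and none was called. Pdgfc, which signals through PDGF receptor alpha, read 5.39, 5.09 and 5.01 in tumour replicates 1 to 3 and 3.96, 4.85 and 4.55 in the HG-PIN of the same mice (change 0.71, limma adjusted p = 0.491). It was higher in 3 of 3 mice, as were 11.5% of all tested genes. The largest difference, 1.43, fell in the mouse of replicate 1, as for Pdgfra. Pdgfc was below the gauge in the HG-PIN of replicates 1 and 3, and a link between the 2 genes was not tested. Pdgfa, Pdgfb and Pdgfd stood at -0.17, -0.08 and -0.09. Of 7 dipeptidyl peptidases related to Fap, 5 were tested, 4 were positive and none was called, with Dpp4 at 0.95 (limma adjusted p = 0.765) and Dpp7 at 0.32 (limma adjusted p = 0.817). Of 15 myofibroblast genes, 14 were tested, 9 were positive and none was called, with Sulf1, a heparan sulfatase, at 2.52 (limma adjusted p = 0.158) and Adam12, a metalloproteinase, at 0.98 (limma adjusted p = 0.251).

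Markers of other cells were set beside the fibroblast genes. Of 13 tested endothelial markers, 11 were positive and none was called, with Emcn at 1.02 (limma adjusted p = 0.299) and Pecam1 at 0.87 (limma adjusted p = 0.506), which were 0.66 and 0.44 without tumour replicate 3. The endothelial sum was 520 on tumour replicate 3 against 272 and 264 on tumour replicates 1 and 2, 203 to 244 in T-3Mb-Erg HG-PIN and 189 to 234 in control HG-PIN. Of 10 pericyte markers, 7 were positive, with Rgs5 at 2.02 (limma adjusted p = 0.0531) and Ndufa4l2 at 1.32 (limma adjusted p = 0.436). Their sum was 518 on tumour replicate 3 against 279 to 375 on the other tumours. Without that array Rgs5 was called (1.50, limma adjusted p = 0.0261). Limma then called 28 of all tested genes higher, against 11 with it.

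Macrophage and leukocyte markers summed to 770 on tumour replicate 3 and to 391 and 358 on the other tumours, with 6 of 14 tested positive and Cd14 lower in tumours (-1.73, limma adjusted p = 0.0409; 0.0683 with the fixed block). The fat cell and endothelial fatty acid carrier Fabp4 read 9.08 on tumour replicate 3, against 5.03 and 4.93 on the other tumours (change 2.19, limma adjusted p = 0.635; 0.67 without that array). The Schwann and fat list to which it belongs summed to 636 on that array and to 137 and 165 on the other tumours. Fabp4 made up most of the 636 and was the only 1 of the 8 genes of the list at its highest there. S100b stood at -0.52 (limma adjusted p = 0.841). Smooth muscle markers had 11 of 14 negative and none called, with Myl9 at -0.96 (limma adjusted p = 0.521) and Lmod1 at -0.54 (limma adjusted p = 0.527). Their sum on tumour replicate 3 was 797, against 365 and 291 on the other tumours. The part of these cell types in the high decorin, lumican and periostin signal of tumour replicate 3 was not tested.

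Epithelial markers were read in the same way. All 22 tested luminal markers were negative in tumours, 9 of them called lower (0.216% of all tested genes were), with Cldn4 at -3.76, Elf3 at -2.91, Krt8 at -2.88 and Foxa1 at -2.74 (limma adjusted p from 0.00436 to 0.0306). The mean of the list, as a difference from the average of 9 arrays, was -1.15, -1.17 and -1.08 in tumour replicates 1 to 3, while that of the 8 tested fibroblast genes was 0.29, -0.10 and 2.04. The luminal list was thus about equally low in the 3 tumours on this measure, though its summed intensity was 1053, 550 and 1076 and it had 4, 7 and 8 genes above the gauge. Of 11 tested basal epithelial markers, 10 were negative and Krt15 was called lower (7.99-fold, limma adjusted p = 0.0158). With the mouse as a fixed block the limma adjusted p of Krt15 was 0.0572 and that of Krt8 0.0609, so these calls were lost, while those of Cldn4 (0.0121), Elf3 (0.0411) and Foxa1 (0.0359) held. Without tumour replicate 1 limma called 0 of all tested genes in tumours against T-3Mb-Erg HG-PIN, so every call in this comparison was lost. It called 5 and 8 genes without T-3Mb-Erg HG-PIN replicates 1 and 2. Lymphocyte markers had 2 of 7 positive, with Cd79b at -0.26 and Cd8a at -0.23 (limma adjusted p = 0.977 and 0.979).

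**Figure D4:**
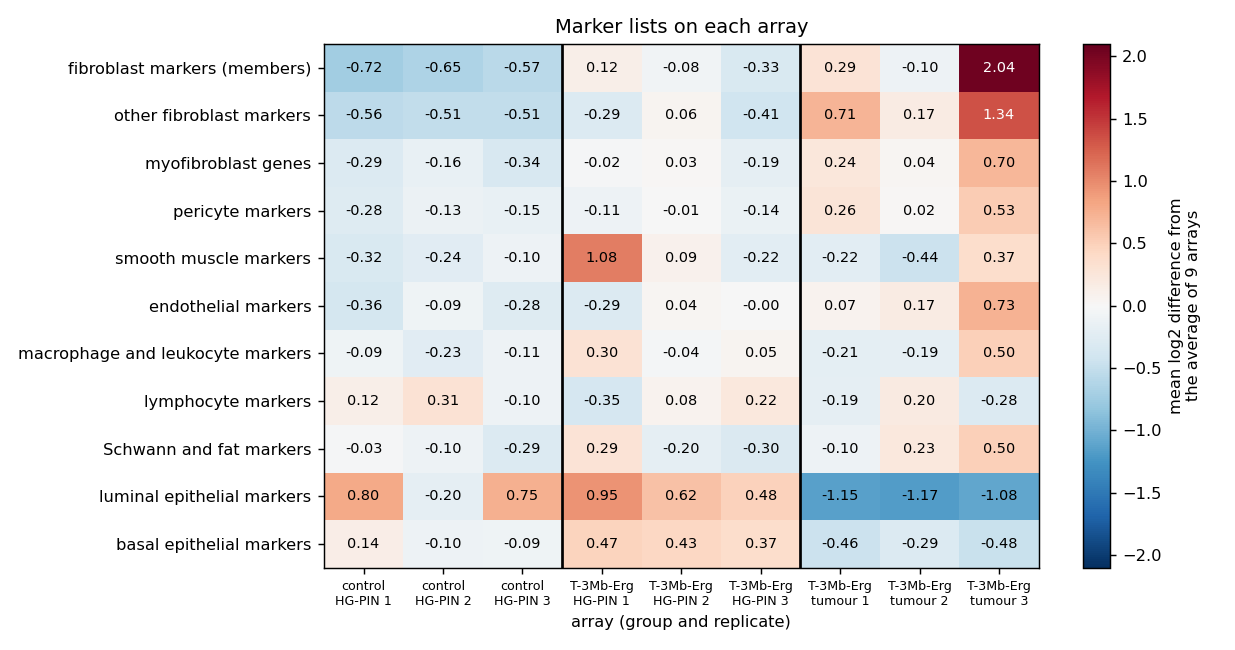
Mean log2 difference from the average of the 9 arrays, for each marker list (rows) on each array (columns), as a number and a colour. Tumour replicate 3 is at 2.04 for the fibroblast genes and at 1.34 for the other fibroblast markers, T-3Mb-Erg HG-PIN replicate 1 is at 1.08 for smooth muscle, and the luminal list is between -1.17 and -1.08 in all 3 tumours.

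The tested genes whose profile over the 9 arrays was nearest to the mean profile of the 8 tested members were ranked by the root mean square difference of centred log2 values, over 15654 candidates. The nearest 10 were Xdh, a purine oxidase (0.12), Mfap5, a microfibril protein of fibroblasts (0.20), Rrm1 (0.23), Rbms1 (0.26), Pecam1, an endothelial adhesion molecule (0.27), Calcrl, a receptor of vascular endothelium (0.27), Ror1 (0.27), Pgr, the progesterone receptor (0.28), Igfbp7 (0.28) and Col4a1, a basement membrane collagen (0.28). The median over all candidates was 0.87, and the root mean square of the mean profile itself was 0.79. None of these genes was called in tumours against T-3Mb-Erg HG-PIN, with limma adjusted p from 0.481 to 0.816. Among the members, Pdgfrb (0.55), Postn (0.60) and Bgn (0.64) were nearest to their common mean, and Lum (1.30), Thy1 (1.08) and Pdgfra (1.05) farthest. The mean profile is dominated by tumour replicate 3, where Lum was above it and Pdgfra and Thy1 below.

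The sequences before the start sites of 3 members are printed because these genes followed different patterns: Pdgfra was above its HG-PIN level in all 3 tumours, though at the gauge in 2 of them, Postn was at its highest in 1, and Dpt stayed below the gauge. RefSeq promoter windows of GRCm38.p6 were used for 5 of the 10 members, giving 7 windows, from which the 250 bases before the annotated start were taken. No window was available for Dcn, Lum, Thy1 and Fap. The chromosome of Pdgfrb was left out for members, though not for the shares over all windows. Capitals mark TATAAA, the TATA box, and CANNTG, the E-box, which basic helix-loop-helix and Snail-family factors bind. Both strands were searched, and overlapping matches were counted. The windows are chr5:75152001-75152250 for Pdgfra, chr3:54360857-54361106 for the downstream start of Postn and chr1:164796413-164796662 for Dpt, all on the plus strand.
Pdgfra: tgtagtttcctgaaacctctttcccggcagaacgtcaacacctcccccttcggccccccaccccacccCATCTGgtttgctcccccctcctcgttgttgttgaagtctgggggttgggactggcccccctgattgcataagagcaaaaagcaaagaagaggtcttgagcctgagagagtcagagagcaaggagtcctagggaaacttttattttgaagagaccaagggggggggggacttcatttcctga
Postn: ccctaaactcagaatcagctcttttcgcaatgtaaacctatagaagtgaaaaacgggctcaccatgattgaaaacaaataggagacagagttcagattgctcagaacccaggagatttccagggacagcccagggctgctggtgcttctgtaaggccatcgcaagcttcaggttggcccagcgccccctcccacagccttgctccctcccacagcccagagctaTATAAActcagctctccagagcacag
Dpt: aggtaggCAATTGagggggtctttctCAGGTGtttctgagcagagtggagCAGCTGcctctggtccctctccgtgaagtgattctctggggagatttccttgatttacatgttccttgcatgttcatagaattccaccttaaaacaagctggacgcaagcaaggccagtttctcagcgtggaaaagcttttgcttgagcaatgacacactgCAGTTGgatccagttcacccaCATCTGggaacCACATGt
The printed Postn window held 1 TATAAA, which began 26 bases before the start. The window of the upstream Postn start, not printed, held none. TATAAA is present in 12.4% of 32851 windows of this length. The E-box was found 6 times in the Dpt window, once in that of Pdgfra and not in that of Postn, and 66.2% of all windows held it. CCAAT, the AP-1 motif TGANTCA and the TEAD motif GGAATG, present in 33.8%, 6.75% and 12.6% of all windows, were in none of the 7. These matches describe letters in a window and not binding.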

How the data were processed

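Laser-captured lesions gave 9 arrays in 3 groups of 3, grouped by the genotype and lesion that the labels give. The authors deposited intensity values on a linear scale (1.36 to 13922) for 41345 probe sets; per the labels' protocols, RNA of fixed tissue went through NuGEN Ovation amplification and onto an Affymetrix Mouse Gene 2.0 ST array. How background was corrected, probes summarised and arrays normalized is not given in the sources used here.

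Probe sets with exactly 1 symbol (23521) were named through the platform annotation, updated by Entrez identifier with the RefSeq table of GRCm38.p6 (23328 matched). The brightest probe set was kept for each of 22180 symbols, values were log2-transformed, and the lowest 25% by mean (below 3.25) were removed, leaving 16635 genes. Limma 3.58.1 in R 4.3.3 fitted group means over 9 arrays with a mean trend. The mouse was a random block (consensus correlation -0.01), since T-3Mb-Erg HG-PIN and tumours came from the same mice by the labels; same-mouse deviations correlated at 0.17, 0.10 and -0.30. P-values were Benjamini-Hochberg adjusted over all 16635 genes, and genes under 0.05 are called. The script was tested on simulated data. Arrays have no depth, and their number, 3 a group, limits the precision.

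The members and lists were chosen with earlier results of these data known. Named genes were the 10 members, for each list up to 4 called members by p in tumours against T-3Mb-Erg HG-PIN or else the 2 with the smallest p, the 4 PDGF ligands, and the 10 genes nearest in profile; predicted models, microRNAs and Snor symbols were left out of the latter.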

Additional observations from a re-analysis of the deposited data

How the results depend on the processing

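Over 16 kinds of alternative, the members called stayed at 0 in T-3Mb-Erg against control HG-PIN. In tumours against T-3Mb-Erg HG-PIN 1 member, Pdgfra, was called with array weights (limma adjusted p = 0.0207), and 0 with a fixed replicate block for each mouse (median 0.76). Against control HG-PIN, 3 were called with array weights, 2 with a term for array range, 1 after dropping the array of narrowest range in each group (fitted with no mouse block, as 1 pair remained), and 0 to 2 when single arrays were left out. The median change of the members went from 1.61 to 0.91 with no filter and 0.61 with array weights in that comparison, and from 0.058 to 2.43 over single arrays left out; in tumours against T-3Mb-Erg HG-PIN it went from -0.16 to 1.62. Changes that turned sign in the latter comparison were those of Bgn with the mean of its probe sets (0.15), Pdgfrb with array weights (-0.068), and, over single arrays left out, Pdgfrb (-0.12 to 0.55), Dcn (-0.92 to 1.57), Lum (-0.78 to 2.49), Postn (-0.20 to 1.68) and Fbln1 (-0.091 to 0.16). Against control HG-PIN they were Bgn (-0.19 with array weights; -0.31 to 0.56 over arrays left out), Dcn (-0.089 to 2.40) and Lum (-0.36 to 2.91). Counts over all genes ranged from 0 to 405 around 47, from 0 to 9 around 0 and from 0 to 938 around 30 in the 3 comparisons, the highest with array weights in all 3. Signal near background, in at least 1 of the groups compared, limits the size of every change in Pdgfra, Pdgfrb, Lum, Fap, Dpt, Fbln1 and Postn. The same holds for the changes of Thy1 against control HG-PIN and against T-3Mb-Erg HG-PIN, where replicates 1 and 3 were below the gauge.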
